A study of Homo sapiens and Mus musculus with 56 samples.

Results

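Tumours of the human glioblastoma line U87M2, grown in nude mice and read on mouse gene arrays after treatment with the MET inhibitor V-4084 or with vehicle, are described here. Sample titles selected 6 arrays, 3 per treatment, out of 28 mouse arrays and 56 arrays in the series. Every tumour was started from 500000 U87M2 cells in 100 µl of PBS placed under the skin of the flank. Mice of the treated group received V-4084 at 30 mg per kg, and mice of the control group received the carrier, made of Tween 80 at 0.05% and MC 400 at 0.5%, each for 7 days. By its label, V-4084 is a small molecule that blocks MET kinase selectively. The other mouse arrays hold tumours of the lines U118, SF295, DBM2 and U251M2 treated in the same way, and a second platform with human probes holds RNA that the labels assign to cultured cells of the same 5 lines. The labels give no sex or age of the mice and do not say that the repeats of a group came from separate animals, so the p-values measure the spread between arrays. Nude mice lack a thymus and have few mature T cells, and a tumour under the skin has a host bed of skin, fat and muscle that differs from brain.

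MET is the receptor tyrosine kinase for hepatocyte growth factor (HGF). Its activation feeds the RAS-MAPK and PI3K-AKT cascades, which drive transcription of feedback inhibitors and cell cycle genes and keep FOXO transcription factors out of the nucleus. In a human tumour in a mouse, vessels, macrophages and fibroblasts come from the host, while the malignant cells are human. Mouse probes are designed for host transcripts, but some can bind human transcripts of similar sequence. Many of the genes below, though not all, are therefore set beside the human arrays of the same line.

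The values are log2 signals of whole-transcript probe sets, used as deposited. The medians of the 6 arrays lay between 6.23 and 6.31, and no 2 arrays held identical values. The label of a glial tumour was not visible on mouse probes: Gfap, the filament protein of astrocytes, lay between 5.96 and 6.18, Olig2 between 5.81 and 6.47 and Sox2 between 4.88 and 5.36, near or under the array medians. Nes, nestin, which sprouting endothelium also makes, was the 1 called gene of 14 in the glial list (lower), and lost its call without vehicle array 1 or 3 or V-4084 array 2 or 3 (adjusted p up to 0.0755). Genes taken as host markers were high on mouse probes. Cdh5, the endothelial cadherin, lay between 9.92 and 10.28, Cd68, a macrophage lysosomal protein, between 9.20 and 9.88 and Col1a1, a fibroblast collagen, between 10.60 and 11.62. On the human vehicle arrays of U87M2 the same symbols averaged 5.84 for CDH5, 11.14 for CD68 and 11.01 for COL1A1. The part of human RNA in the mouse signal of these genes was not tested. The host composition differed between arrays of a group. Skeletal muscle genes averaged 7.28 and 7.60 on vehicle arrays 1 and 2 but 6.55 on vehicle array 3 and 6.33 to 6.50 on the V-4084 arrays. Of 18 muscle genes none was called (median -0.72). Groups did not overlap for 8 of them, all lower with V-4084, against 8.4% of all genes. Ckm, muscle creatine kinase, read 8.46, 8.59 and 7.39 with vehicle and 7.46, 7.32 and 7.63 with V-4084. Adipocyte genes averaged 6.77, 6.18 and 6.49 with vehicle and 6.43, 7.15 and 7.11 with V-4084, so V-4084 arrays 2 and 3 were high (1 of 13 genes called higher, Lipe; median 0.37). Lipe lost its call without vehicle array 2 or V-4084 array 2 or 3 (adjusted p up to 0.192). Macrophage genes were highest on V-4084 array 1 (8.80, against 8.31 to 8.53 on the other 5 arrays). Many results below, though not all, are also given without vehicle arrays 1 and 2, an alternative chosen after the muscle values were seen.

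**Figure D1:**
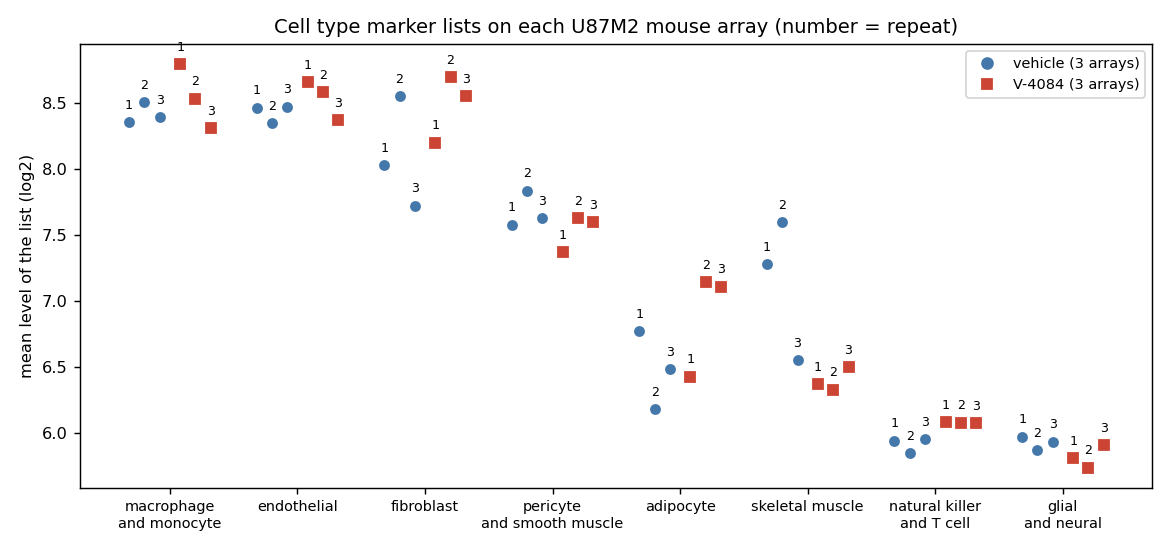
Mean log2 level of 8 cell type marker lists on each of the 6 U87M2 mouse arrays, with circles for vehicle, squares for V-4084 and the repeat number above each point. Muscle genes stand high on vehicle arrays 1 and 2 (7.28 and 7.60), adipocyte genes on V-4084 arrays 2 and 3 (7.15 and 7.11) and macrophage genes on V-4084 array 1 (8.80).

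With V-4084, some genes of cell division, vessel sprouting and glycolysis fell, while some genes of macrophages and cholesterol export rose. Of 19938 genes, 741 were called at an adjusted p under 0.05 (3.72% of those tested), 497 higher (2.49%) and 244 lower (1.22%). The changes were small: 270 of the called genes differed by at least 1.5-fold and 41 by at least 2-fold. Vehicle and treated arrays were fully separated for 734 of the 741 called genes, and for 18.5% of all genes (10.1% higher, 8.4% lower). The largest increases and decreases were named only among separated genes, so their separation adds no support. The count depended on single arrays: it was 398 without vehicle array 1, 413 without vehicle array 3, 372 without V-4084 array 1 and 411 without V-4084 array 2. Without vehicle arrays 1 and 2 together it was 213, of which 183 were among the 741. Of the 111 called genes that the naming rule takes, 38 kept their call in all 16 alternatives. Genes of this rule that are given below array by array belong to these 38 unless an exception is stated beside them. The microRNA genes lie outside the rule, so they are not among the 38 and were not followed through the alternatives.

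Endothelial genes moved in both directions. The endothelial list held 15 measured genes, of which 3 were called higher and 1 lower, with a median difference of 0.10 against 0.00 over all genes. The general markers Pecam1 (8.98, 9.19 and 9.09 with vehicle; 9.33, 9.19 and 8.96 with V-4084) and Cdh5 were not called, and the mean level of the list was 8.35 to 8.47 with vehicle and 8.37 to 8.66 with V-4084. In bulk tissue, fewer cells of a type and less RNA per cell cannot be told apart. Within this list Cldn5, the claudin that seals endothelial tight junctions, fell. It read 8.81, 8.61 and 8.85 with vehicle and 7.84, 7.54 and 7.73 with V-4084, a 2.08-fold difference (log2 -1.05, SE 0.15, adjusted p = 8.81e-05). Sox17, a transcription factor of arterial endothelium, rose from 6.55, 6.35 and 6.53 to 7.28, 7.43 and 7.09 (log2 0.79, SE 0.12, adjusted p = 0.000176). The groups did not overlap for either gene. Tek, the angiopoietin receptor, and Vwf, the clotting factor stored in endothelial cells, were also called higher (0.43 and 0.55). Vwf lost its call without vehicle array 2 or V-4084 array 2 and Tek without any of vehicle arrays 1 and 3 and V-4084 arrays 1 and 2, with adjusted p up to 0.0728 and 0.176. The count of endothelial genes called higher fell to 1 without V-4084 array 2 and to 2 without vehicle array 1, vehicle array 2 or V-4084 array 1, and was 1 without vehicle arrays 1 and 2.

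The vessel-sprouting ligands Apln, Angpt2 and Vegfa fell. In the angiogenesis list of 25 genes, 3 were called lower and 2 higher, with a median of 0.00. The 3 lower genes were called in every leave-one-out fit and without vehicle arrays 1 and 2. Apln encodes apelin, a peptide made by the tip cells that lead a sprout. It read 8.65, 9.41 and 9.21 with vehicle and 7.88, 7.66 and 7.54 with V-4084, which is 2.64-fold lower (log2 -1.40, SE 0.20, adjusted p = 0.000116). Its receptor Aplnr moved the other way, from 8.55, 7.93 and 8.45 to 9.21, 9.14 and 8.98 (log2 0.80, SE 0.13, adjusted p = 0.000349). Ligand and receptor thus changed in opposite directions, with no overlap between groups for either. Angpt2, the destabilising ligand of Tek, read 7.59, 8.55 and 8.65 with vehicle and 7.37, 7.19 and 6.85 with V-4084 (log2 -1.13, SE 0.23, adjusted p = 0.00496). Vehicle array 1 was well below the other vehicle arrays for Angpt2 and still above every V-4084 array. Vegfa, the main growth factor for endothelium, fell from 8.19, 8.24 and 8.24 to 7.51, 7.64 and 7.52 (log2 -0.67, SE 0.11, adjusted p = 0.000935). Its receptors Kdr (8.20 ± 0.16, SD, n = 3, with vehicle and 8.56 ± 0.11, n = 3, with V-4084) and Flt1 (8.67 ± 0.08 and 8.27 ± 0.12) did not overlap between groups but were not called. Esm1, another tip cell gene, overlapped between groups and was not called (7.29 ± 0.79 and 7.40 ± 0.09).

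A list of 20 tip cell genes was written after the values were seen, so its count supports nothing. It holds Apln and Angpt2 again, and 16 of its members are in other lists too. Of the 20, 6 were called lower, these 2 included, and 1 higher, with a median of -0.33. Kcne3, a potassium channel subunit found in tip cells, had the largest decrease among the named genes. It read 7.33, 7.58 and 7.44 with vehicle and 6.17, 5.55 and 5.96 with V-4084, which is 2.95-fold lower (log2 -1.56, SE 0.23, adjusted p = 0.000176). Ramp3, a partner protein of the adrenomedullin receptor, fell from 7.81, 8.07 and 8.0 to 7.14, 7.16 and 6.91 (log2 -0.89, SE 0.13, adjusted p = 0.000224). The groups did not overlap for either gene. Cxcr4, a chemokine receptor in the same list, was instead called higher (0.55), and lost its call without vehicle array 1 or V-4084 array 1 (adjusted p up to 0.0853). Nid2, a basement membrane protein, was called lower (-0.56) and lost its call without vehicle array 1 or V-4084 array 3 (up to 0.0806). Adamts1, a secreted protease that cleaves proteoglycans, read 7.68, 7.87 and 7.85 with vehicle and 6.54, 6.65 and 6.71 with V-4084 (2.24-fold lower, log2 -1.16, SE 0.11, adjusted p = 7.22e-07). Its relative Adamts4 was also lower (-0.75, SE 0.16, adjusted p = 0.00533). Without vehicle arrays 1 and 2 the Adamts4 difference was -0.66 and was no longer called. Pericyte and smooth muscle genes gave no call among 13 (median -0.12).

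**Figure D2:**
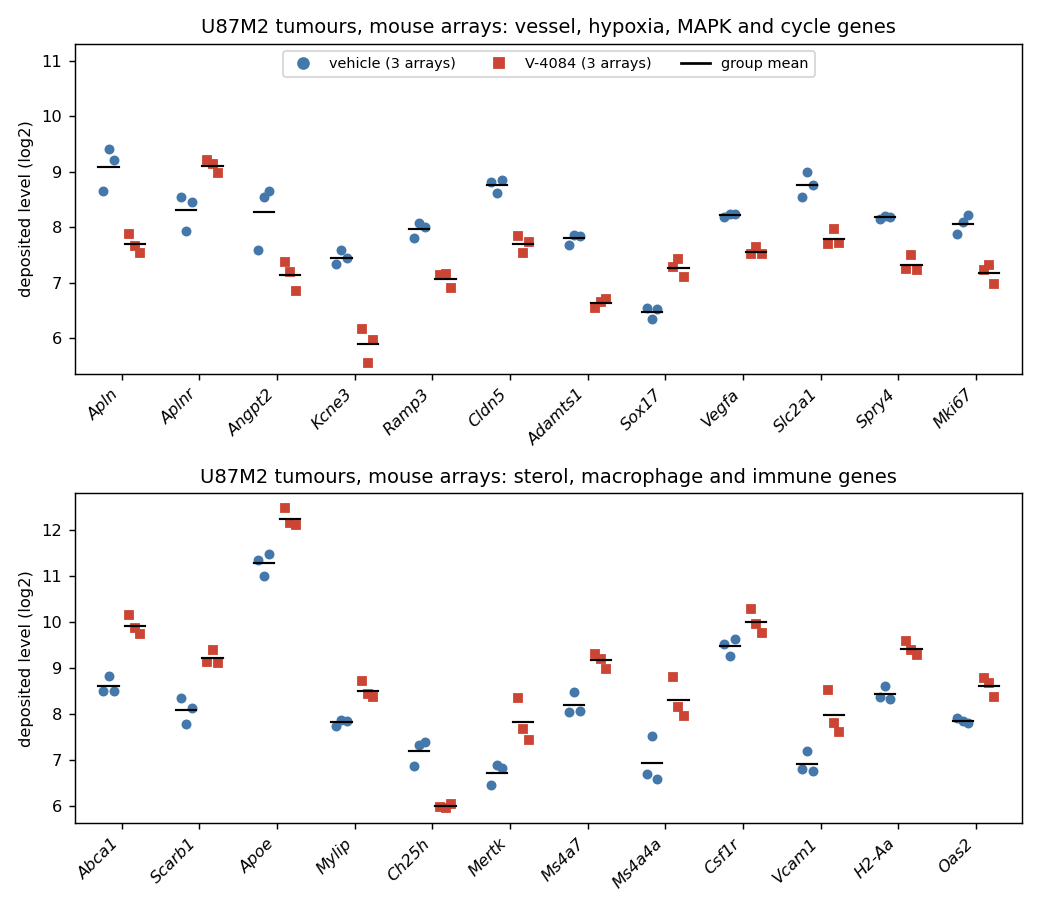
Deposited log2 level of 24 genes on the 6 U87M2 mouse arrays, with circles for vehicle, squares for V-4084 and a bar at each group mean of 3 arrays. In the upper panel Apln falls from 8.65 to 9.41 with vehicle to 7.54 to 7.88 with V-4084 while its receptor Aplnr rises, and in the lower panel Abca1 rises from 8.5 to 8.82 to 9.74 to 10.15.

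The drug target itself was not called on mouse probes. Met read 6.63, 6.59 and 6.57 with vehicle and 6.67, 6.77 and 6.86 with V-4084 (log2 0.17, SE 0.08, adjusted p = 0.352). Hgf read 6.80, 7.14 and 7.11 with vehicle and 7.55, 7.24 and 7.15 with V-4084 (log2 0.29, SE 0.12, adjusted p = 0.238). Both lay only a little above the array medians, and their V-4084 arrays were above their vehicle arrays without a call. On the human arrays of U87M2, MET fell by 1.06 (SE 0.16, adjusted p = 3.13e-05) and HGF differed by -0.03 (SE 0.12, adjusted p = 0.919). Of 20 genes of the HGF-MET axis, 1 was called higher and 1 lower, with a median of -0.03. Gab1, the docking adaptor that carries MET signals, rose from 7.45, 7.57 and 7.45 to 8.21, 8.05 and 7.90 (log2 0.56, SE 0.09, adjusted p = 0.000631). Plau, the protease urokinase, which can activate pro-HGF, was called lower (-0.69), and lost that call without vehicle array 2 or 3 or V-4084 array 2 or 3 (adjusted p up to 0.104).

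Of 23 genes switched on by ERK, the MAPK output list, 8 were called lower and none higher (median -0.21). The limma fit gave 3 without vehicle array 1, 5 without vehicle array 3 or V-4084 array 3, and 5 without vehicle arrays 1 and 2. Spry4 and Spry2, feedback inhibitors of receptor tyrosine kinases, held in all fits. Spry4 read 8.15, 8.20 and 8.18 with vehicle and 7.25, 7.49 and 7.23 with V-4084 (log2 -0.85, SE 0.13, adjusted p = 0.000263). Spry2 read 7.53, 7.51 and 7.47 with vehicle and 6.67, 6.91 and 6.62 with V-4084 (log2 -0.77, SE 0.10, adjusted p = 6.75e-05). The vehicle arrays lay close together for both, and all V-4084 arrays were lower. Ccnd1, cyclin D1, fell from 9.97, 10.13 and 10.24 to 9.44, 9.53 and 9.43 (log2 -0.65, SE 0.10, adjusted p = 0.000521). Of the 22 symbols of this list measured on human arrays, 14 were called lower and 1 higher. The part of human RNA in the mouse probe signal was not tested for them. The other members called on mouse arrays were Dusp6, Etv4, Etv5, Fos and Myc. Of 16 FOXO targets, 5 were called higher and 1 lower (median 0.25). Sesn3, a stress-induced sestrin, rose by 0.50 (SE 0.10, adjusted p = 0.00423) and Txnip, a thioredoxin inhibitor that also limits glucose uptake, by 0.60 (SE 0.13, adjusted p = 0.00578). The FOXO count also moved: 2 were called higher without vehicle array 1 or V-4084 array 1, 3 without vehicle array 2 or V-4084 array 2, and 0 without vehicle arrays 1 and 2, where Sesn3 and Txnip also lost their calls.

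Many cell division genes fell. Of 25 G2/M genes, 16 were called lower and 9 were not called, with a median of -0.48 and a range from -0.89 to -0.23. The groups did not overlap for any of the 25, all lower, against 8.4% of all genes. The count of calls ran from 10 (without vehicle array 3) to 15 when 1 array was left out, and was 10 without vehicle arrays 1 and 2. Mki67, the proliferation antigen, read 7.87, 8.09 and 8.22 with vehicle and 7.22, 7.32 and 6.98 with V-4084 (1.85-fold lower, log2 -0.89, SE 0.16, adjusted p = 0.00151). Plk1, a mitotic kinase, read 8.59, 8.34 and 8.69 with vehicle and 7.67, 7.87 and 7.65 with V-4084 (log2 -0.81, SE 0.12, adjusted p = 0.000263). Both fell clear of the vehicle range on all 3 treated arrays. Kif23 and Prc1, which build the midzone of the dividing cell, fell by 0.66 and 0.59 on the log2 scale, and Aurkb, the kinase of the chromosomal passenger complex, fell by 0.54. Of 20 G1/S genes, 8 were called lower and 12 were not called (median -0.32). The groups did not overlap for 18, all lower, against 8.4% of all genes. Rrm2, a subunit of ribonucleotide reductase, fell from 7.91, 8.06 and 8.12 to 7.21, 7.57 and 7.55 (log2 -0.59, SE 0.11, adjusted p = 0.00275). The other called G1/S genes were the helicase subunits Mcm2, Mcm3, Mcm5 and Mcm7 with Pcna, Tyms and Tk1. The G1/S count was 1 without vehicle array 3, 2 without vehicle array 1 or V-4084 array 1, 5 without V-4084 array 3 and 2 without vehicle arrays 1 and 2. The same symbols were also lower on the human arrays for 22 of 25 G2/M genes and 5 of 20 G1/S genes, and the part of human RNA in the mouse probe signal was not tested for them.

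Part of the glycolysis and hypoxia genes fell. Of 23 measured genes 8 were called lower and none higher (median -0.29), and 5 were called without vehicle array 2 or 3 and 3 without vehicle arrays 1 and 2. Slc2a1, the glucose transporter GLUT1, read 8.54, 9.0 and 8.76 with vehicle and 7.69, 7.97 and 7.71 with V-4084 (1.97-fold lower, log2 -0.98, SE 0.16, adjusted p = 0.000595). Pgk1, a glycolytic kinase, read 9.07, 9.53 and 9.23 with vehicle and 8.25, 8.39 and 8.29 with V-4084 (log2 -0.97, SE 0.13, adjusted p = 7e-05). The groups did not overlap for either gene. Of the 21 symbols of this list measured on human arrays, 15 were called lower, and the part of human RNA was not tested. On mouse arrays Vegfa is a called member as well, and the other calls were Pdk1, Egln3, Adm, Pgam1 and Slc16a3. Muscle genes were high on vehicle arrays 1 and 2, and the part of muscle in these values was not tested. With the muscle level of each array as a covariate 7 genes of the list were called, and without those 2 arrays Slc2a1, Pgk1 and Vegfa were.

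Genes of lipid synthesis and amino acid supply gave fewer calls. Of 17 cholesterol synthesis genes 6 were called lower and none higher (median -0.25), namely Hmgcs1, Sqle, Cyp51, Fdps, Fdft1 and Hsd17b7, with differences from -0.57 to -0.38. None of these 6 kept its call in every leave-one-out fit. The limma fit without vehicle array 3 called none of the list, where 2562 of all genes had an unadjusted p under 0.05, and it called 2 without V-4084 array 1 and 3 without V-4084 array 2. Without vehicle arrays 1 and 2 it called 5. On human arrays 14 of the 14 measured cholesterol synthesis symbols were called lower, against 10.9% of all shared symbols. The part of human RNA in the mouse probe signal was not tested for them. Of 12 fatty acid synthesis genes 1 was called on mouse arrays: Fads2, a desaturase of polyunsaturated fatty acids, fell from 8.39, 8.27 and 8.26 to 7.19, 7.50 and 7.32 (1.96-fold, log2 -0.97, SE 0.13, adjusted p = 8.81e-05). Scd1, the stearoyl desaturase that is abundant in fat, ranged widely, at 9.13, 6.95 and 8.59 with vehicle and 8.39, 10.08 and 10.04 with V-4084, and was not called. Its high arrays were those with high adipocyte genes. Of 23 genes of the ATF4 and unfolded protein response 3 were called lower (median -0.16), and the count was 1 without vehicle array 3, without V-4084 array 1 or without vehicle arrays 1 and 2. Slc7a5, the large neutral amino acid transporter, fell from 8.23, 8.03 and 8.33 to 7.36, 7.68 and 7.29 (log2 -0.75, SE 0.13, adjusted p = 0.00126) and held in all fits.

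**Figure D3:**
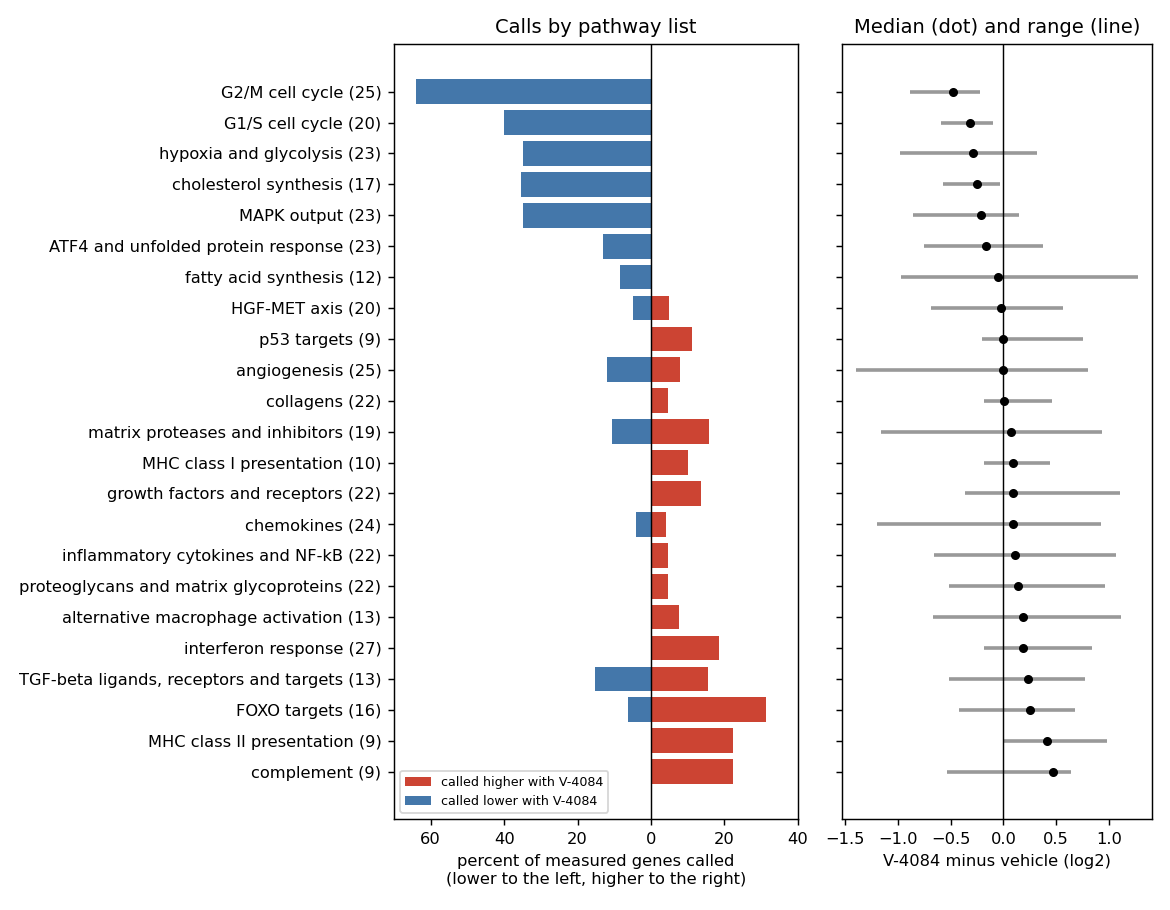
Left, the percent of the measured genes of each of 23 pathway lists (number in brackets) called lower (left of 0) or higher (right of 0) with V-4084 in U87M2 tumours on mouse arrays; right, the median (dot) and range (line) of the log2 differences. G2/M genes have the most calls (16 of 25 lower, median -0.48), and the complement and MHC class II lists have the highest medians (0.47 and 0.41).

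Some genes that move cholesterol out of cells rose. A list of sterol efflux and liver X receptor (LXR) target genes was written after the values were seen, so its count is a description: 8 of 15 measured genes were called higher, 1 lower and 6 not at all, with a median of 0.55, and 4 were called higher without vehicle arrays 1 and 2. Abca1, the pump that loads cholesterol onto lipoproteins, had the smallest p of the named genes. It read 8.5, 8.82 and 8.5 with vehicle and 10.15, 9.87 and 9.74 with V-4084 (2.48-fold, log2 1.31, SE 0.11, adjusted p = 3.21e-07). Scarb1, the HDL receptor, rose from 8.34, 7.77 and 8.14 to 9.13, 9.40 and 9.10 (log2 1.13, SE 0.15, adjusted p = 8.1e-05). Neither gene overlapped between groups, which the naming rule required of both. Apoe, the apolipoprotein of macrophages and glia, was among the brightest, at 11.35, 11.01 and 11.49 with vehicle and 12.47, 12.16 and 12.10 with V-4084 (log2 0.96, SE 0.16, adjusted p = 0.000614). Mylip, the ligase that degrades the LDL receptor, rose by 0.68 (SE 0.12, adjusted p = 0.00139). Without vehicle arrays 1 and 2, Apoe and Mylip were no longer called. Npc1, Npc2, Cyp27a1 and Mertk were the other members called higher. Ch25h, which makes the oxysterol 25-hydroxycholesterol, was the member called lower. It read 6.87, 7.32 and 7.39 with vehicle and 5.97, 5.95 and 6.04 with V-4084 (2.30-fold lower, log2 -1.20, SE 0.16, adjusted p = 8.1e-05).

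Macrophage genes were partly higher. Of 13 macrophage and monocyte genes 4 were called higher and 1 lower (median 0.35), with mean levels of 8.36 to 8.51 with vehicle and 8.31 to 8.80 with V-4084. Ms4a7, a membrane protein of tissue macrophages, was the firmest of them. It read 8.04, 8.47 and 8.07 with vehicle and 9.30, 9.20 and 8.99 with V-4084 (1.96-fold, log2 0.97, SE 0.12, adjusted p = 6.75e-05). Csf1r, the receptor for macrophage growth factor, read 9.53, 9.27 and 9.62 with vehicle and 10.28, 9.96 and 9.75 with V-4084 (log2 0.52, SE 0.13, adjusted p = 0.0213). For Csf1r the groups did not overlap, but it lost its call without vehicle array 1 or 2 or V-4084 array 1 or 2 (adjusted p up to 0.177). Adgre1 (F4/80) and Mpeg1 were called higher in the full fit, and each lost its call without vehicle array 1 or V-4084 array 1, Adgre1 also without V-4084 array 2 and Mpeg1 without vehicle array 2 (adjusted p up to 0.156 and 0.229). Cd68 was not called, at 9.78, 9.88 and 9.61 with vehicle and 9.82, 9.48 and 9.20 with V-4084. Ccr2, the receptor that recruits blood monocytes, was called lower (-0.88, SE 0.22, adjusted p = 0.0231), a call lost without vehicle array 2 or 3 or V-4084 array 2 or 3 (adjusted p up to 0.126). The number of macrophage genes called higher fell to 1 without vehicle array 1 or V-4084 array 1 and to 2 without V-4084 array 2 or without vehicle arrays 1 and 2.

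Among the largest increases were further genes known from macrophages. Ms4a4a, a relative of Ms4a7, read 6.70, 7.52 and 6.58 with vehicle and 8.80, 8.15 and 7.96 with V-4084 (2.58-fold, log2 1.37, SE 0.23, adjusted p = 0.000939). Mertk, the receptor kinase with which macrophages take up dying cells, read 6.46, 6.88 and 6.81 with vehicle and 8.34, 7.68 and 7.44 with V-4084 (log2 1.10, SE 0.16, adjusted p = 0.000176). V-4084 array 1, which had the highest macrophage list, was the highest array for both. Vcam1, an adhesion molecule for leukocytes on endothelium and macrophages, followed that order, at 6.80, 7.19 and 6.76 with vehicle and 8.53, 7.80 and 7.61 with V-4084 (log2 1.06, SE 0.20, adjusted p = 0.002). Lpcat2, which makes platelet-activating factor, rose by 1.11 (SE 0.16, adjusted p = 0.000176) and was no longer called without vehicle arrays 1 and 2. Complement genes C1qa and C1qb were called (2 of 9 higher, median 0.47). Neither was called without vehicle array 3 or V-4084 array 1 (adjusted p up to 0.0808 and 0.227), nor without vehicle arrays 1 and 2, and C1qb was also lost without vehicle array 1 or 2 or V-4084 array 2. Of 13 genes of alternative macrophage activation 1 was called, the scavenger receptor Stab1, higher (median 0.18), a call lost without vehicle array 3 or V-4084 array 1 or 2 (adjusted p up to 0.213). Vcam1 was the 1 called gene of 22 in the inflammatory cytokine and NF-kB list (median 0.11).

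Antigen presentation and interferon genes gave few calls. Of 9 MHC class II genes 6 had groups that did not overlap, all higher, against 10.1% of all genes. Of the 9, 2 were called higher (median 0.41). H2-Aa, a class II chain, rose from 8.37, 8.61 and 8.33 to 9.59, 9.39 and 9.29 (log2 0.98, SE 0.23, adjusted p = 0.0143), and Cd86, a costimulatory ligand, was the other. Neither was called without vehicle array 1 or V-4084 array 1, nor H2-Aa without vehicle array 3 or Cd86 without V-4084 array 2 (adjusted p up to 0.0796 and 0.101). Of 11 dendritic cell genes Clec9a and Cd83 were called higher, in every leave-one-out fit though not without vehicle arrays 1 and 2 together (median of the list 0.02). Clec9a was dim, at 4.52, 5.15 and 5.17 with vehicle and 6.23, 5.74 and 5.76 with V-4084. Of 27 interferon response genes 5 were called higher (median 0.18), and the count was 1 without vehicle array 1 or V-4084 array 1, 2 without V-4084 array 2, 3 without vehicle array 2 or 3, and 0 without vehicle arrays 1 and 2. Oas2, an antiviral enzyme that senses double-stranded RNA, rose from 7.91, 7.84 and 7.80 to 8.78, 8.68 and 8.36 (log2 0.76, SE 0.14, adjusted p = 0.00264) and kept its call with every single array left out. B2m was the 1 called gene of 10 in the MHC class I list (median 0.09), and lost its call without vehicle array 1 or V-4084 array 1 or 2 (adjusted p up to 0.16). The limma fit called none of the keratinocyte (12), Schwann cell (6), erythroid (4), mast cell (9), neutrophil (11), B cell (9) or natural killer and T cell (13) genes, whose list medians lay between -0.06 and 0.05. This stood beside 2979 of all genes at an unadjusted p under 0.05. Of the 13 natural killer and T cell genes 5 had groups that did not overlap, all higher, against 10.1% of all genes.

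Structural matrix genes gave almost no calls. Of 22 collagens Col15a1 was called higher (median 0.00), and of 22 proteoglycans and matrix glycoproteins Fbln1 (median 0.14). Col15a1 lost its call with any one array left out (adjusted p up to 0.168), and Fbln1 without vehicle array 1 or 3 or V-4084 array 2 (up to 0.132). The fibroblast list of 13 genes had 1 call, again Fbln1 (median 0.35), with mean levels of 8.03, 8.55 and 7.72 with vehicle and 8.20, 8.70 and 8.55 with V-4084. Dcn, decorin, varied within the vehicle group (9.31, 10.40 and 8.61) about as far as the groups differed (9.81, 10.73 and 10.66 with V-4084) and was not called. Mgp, matrix Gla protein, which blocks calcification, did rise, from 6.62, 7.61 and 6.62 to 8.03, 8.5 and 8.24 (2.47-fold, log2 1.31, SE 0.25, adjusted p = 0.00249). Vehicle array 2, which had the highest fibroblast list among vehicle arrays, was also the highest of them for Mgp. Of 19 matrix proteases and inhibitors 2 were called lower (Adamts1 and Adamts4) and 3 higher (Mmp3, Timp2 and Ctsk; median 0.07). Those 3 lost their calls when any one of vehicle arrays 1 and 3 and the V-4084 arrays was left out (adjusted p up to 0.317). Of 24 chemokines Cxcl14, which attracts monocytes and dendritic cells, was the 1 called lower. It read 8.69, 8.33 and 8.91 with vehicle and 7.64, 7.45 and 7.24 with V-4084 (2.30-fold lower, log2 -1.20, SE 0.18, adjusted p = 0.000177). Cxcl16, a scavenger receptor and chemokine, was called higher (0.69, SE 0.14, adjusted p = 0.005), a call lost without V-4084 array 1 (adjusted p = 0.0541). In the TGF-beta list of 13 genes 2 were called in each direction, with Tgfbr1, the signalling receptor, higher (0.78, SE 0.15, adjusted p = 0.00277) and Tgfb1, the ligand, lower (-0.48, SE 0.14, adjusted p = 0.0461). Tgfb1 lost its call without vehicle array 1 or 3 or V-4084 array 2 or 3 (up to 0.25), and neither was called without vehicle arrays 1 and 2.

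Several of the largest changes fell outside the lists above. Of 22 growth factor and receptor genes 3 were called higher, Mertk, Igfbp7 and Igf1r (median 0.09). The count was 2 without vehicle array 1 or 3 or V-4084 array 1 or 2, fits in which Igf1r was lost (adjusted p up to 0.159), and 1 without vehicle arrays 1 and 2, where Igfbp7 was lost too. Klk1b22, a tissue kallikrein, had the largest increase of the named genes, from 5.73, 5.97 and 5.79 to 7.38, 7.50 and 7.24 (2.91-fold, log2 1.54, SE 0.15, adjusted p = 7.21e-07). Klk1b genes are near-identical copies in the mouse, so which copy changed is uncertain. Cyp2e1, a cytochrome P450, came next (log2 1.53, SE 0.35, adjusted p = 0.0124), but its arrays read 6.37, 5.38 and 5.97 with vehicle and 6.41, 8.07 and 7.83 with V-4084. V-4084 array 1 was just above the highest vehicle array, and V-4084 arrays 2 and 3, those with high adipocyte genes, were far above. The part of fat in this value was not tested. Its call was lost without vehicle array 2 or V-4084 array 2 or 3 (adjusted p up to 0.11). Cldn1, an epithelial claudin, rose by 1.29 (SE 0.28, adjusted p = 0.00848; 0.0521 without V-4084 array 1). Clec2d, a lectin ligand of natural killer cell receptors, rose from 6.89, 7.09 and 6.82 to 8.05, 8.29 and 7.91 (log2 1.15, SE 0.18, adjusted p = 0.000263). Klhl24, an adaptor of a ubiquitin ligase, rose from 7.13, 7.75 and 7.75 to 8.93, 8.60 and 8.47 (log2 1.12, SE 0.17, adjusted p = 0.000263). Trp53inp1, a p53-induced autophagy protein and the 1 called gene of 9 p53 targets, rose from 6.98, 7.27 and 7.25 to 8.07, 7.89 and 7.80 (log2 0.75, SE 0.10, adjusted p = 8.1e-05). Kcng1, a potassium channel subunit, had a narrow spread, at 9.49, 9.43 and 9.44 with vehicle and 8.58, 8.52 and 8.5 with V-4084 (log2 -0.92, SE 0.08, adjusted p = 4.74e-07). Nrn1, neuritin, fell from 9.61, 9.99 and 10.49 to 9.22, 8.88 and 8.84 (log2 -1.05, SE 0.20, adjusted p = 0.00256).

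The response was tested against the mean response of the other 4 tumour lines on the same mouse platform. In the same limma fit V-4084 gave 2 calls in U118, 2 in SF295, 5 higher and 3 lower in U251M2 and 0 in DBM2. At an unadjusted p under 0.05 the counts were 1355 in U118, 1341 in SF295, 2670 in U251M2 and 458 in DBM2, beside 2979 in U87M2. The U87M2 difference itself differed from the mean of the others for 324 genes (1.63% of those tested), 213 more positive and 111 more negative. Of the U87M2 calls, 208 of the 497 higher and 105 of the 244 lower genes were among these. The count of 324 was 158 without vehicle array 1, 184 without vehicle array 3, 136 without V-4084 array 1, 143 without V-4084 array 2 and 54 without vehicle arrays 1 and 2. For Abca1 the differences in U118, SF295, DBM2 and U251M2 were 0.07, 0.13, -0.07 and 0.21, against 1.31 in U87M2 (difference 1.23, SE 0.13, adjusted p = 6.1e-06). For Apln they were -0.27, -0.11, -0.07 and -0.03, against -1.40 (difference -1.28, SE 0.22, adjusted p = 0.00249). The other lines stayed within 0.3 of 0 for both genes. Ch25h was called lower in U87M2, while in SF295, which has 2 vehicle arrays, its difference was 1.34 and in U118 0.43 (U87M2 minus the others -1.64, SE 0.19, adjusted p = 1.69e-05). Kcne3 (-1.57), Cxcl14 (-1.23) and Adamts1 (-1.20) were also more negative, and Ms4a4a (1.51), Klk1b22 (1.47), Klhl24 (1.26), Hmcn1, a giant matrix protein (1.19), and Mgp (1.12) more positive in U87M2 than in the other lines. The Hmcn1 value rests on 1 of 77 probe sets, which did not all have the same sign. With the mean of its probe sets the U87M2 difference was 0.10 and was not called (adjusted p = 0.733). Cldn5 (difference -1.12, adjusted p = 0.000515), Ms4a7 (0.89, adjusted p = 0.000957) and Spry4 (-0.87, adjusted p = 0.00192) differed as well. Angpt2 did not pass this test (-0.88, SE 0.26, adjusted p = 0.0908), and its difference in U118 was -0.57. Among called G2/M genes Plk1 (-0.68, adjusted p = 0.0103), Mki67 (-0.79, adjusted p = 0.0211) and Aurkb (-0.44, adjusted p = 0.0303) differed from the other lines. Kif23 did not pass (-0.49, adjusted p = 0.0848). Nor did Cenpf, Ccnf, Ccnb2, Bub1b and Cdk1, with adjusted p from 0.107 for Cenpf to 0.296 for Cdk1. The remaining called G2/M genes are not given for this test.

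**Figure D4:**
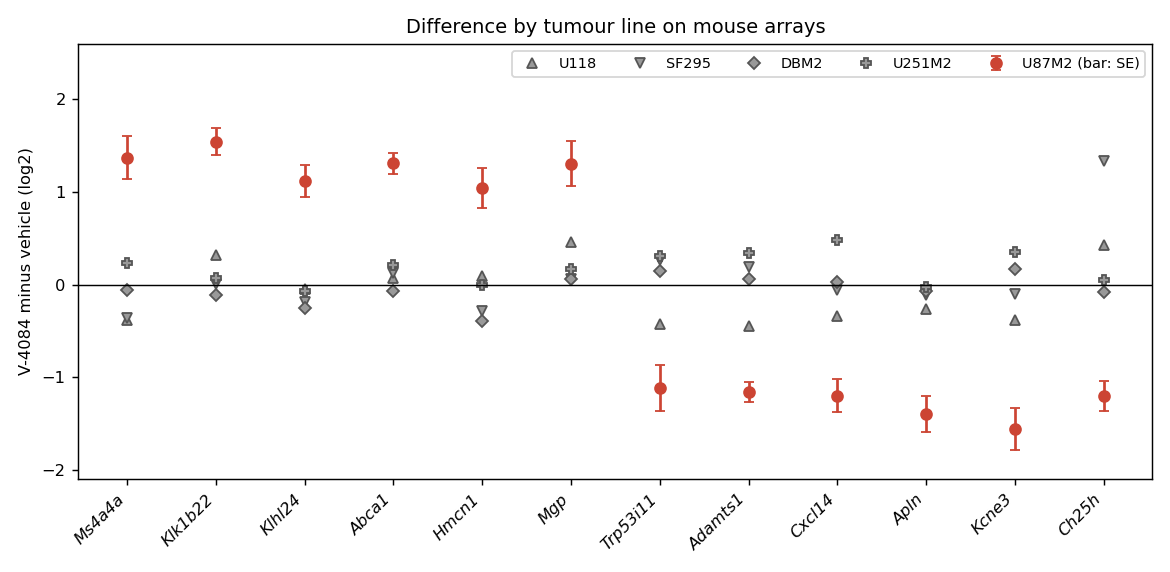
V-4084 minus vehicle (log2) on mouse arrays for the 6 genes with the most positive and the 6 with the most negative difference between U87M2 and the mean of the other 4 lines, with the U87M2 value in red (bar: standard error) and U118, SF295, DBM2 and U251M2 in grey. For Abca1 the grey points lie between -0.07 and 0.21 and U87M2 at 1.31, and for Ch25h SF295 lies at 1.34 on the opposite side of U87M2.

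The human arrays of U87M2, fitted separately, allow the same symbols to be set side by side. On them 2760 of 18417 genes were called (15%), 989 higher (5.37%) and 1771 lower (9.62%). The labels assign their RNA to cultured cells, and no comparison of size is made. CKM read 6.50, 6.34 and 5.81 on the human vehicle arrays and 6.09, 5.93 and 6.10 on the human V-4084 arrays. For this gene vehicle array 3 was the lowest of its group on both platforms and V-4084 array 2 the lowest of its group on both. Other muscle genes did not all keep this order. For Acta1 the lowest V-4084 array was 2 on mouse arrays (7.63) but 3 on human arrays (8.36). For Casq1 the lowest vehicle array was 3 on mouse arrays (6.05) but 1 on human arrays (5.41). The origin of the human-array RNA was not tested. Of 14333 shared symbols, 217 were called lower on mouse arrays, 1568 on human arrays and 126 on both. The 126 were 58.1% of the mouse calls, where 10.9% of all shared symbols were called lower on human arrays. They were 8.04% of the human calls, where 217 of all 14333 were called lower on mouse arrays. For higher calls the counts were 432 on mouse arrays, 814 on human arrays and 131 on both. The 131 were 30.3% of the mouse calls, where 5.68% of all shared symbols were called higher on human arrays. They were 16.1% of the human calls, where 432 of all 14333 were called higher on mouse arrays. The opposite call was found for 20 genes higher and 2 lower on mouse arrays.

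The named genes fell into sets by their call on human arrays. Spry2 (-1.57 on human arrays), Spry4 (-1.32), Ccnd1 (-1.09), Plk1 (-1.11), Mki67 (-0.75), Slc2a1 (-1.04), Pgk1 (-0.79), Vegfa (-1.46), Fads2 (-1.82), Slc7a5 (-1.64), Kcng1 (-0.81) and Apln (-0.92) were called lower on both platforms. Abca1 (1.00), Gab1 (0.83), Klhl24 (1.07), Vcam1 (1.24), Mgp (1.25), Mertk (0.53), Mylip (0.57) and Sesn3 (1.85) were called higher on both. Adamts1 (-0.59) was also called lower on both, and Cyp2e1 (0.56), Cldn1 (0.59) and Cxcl16 (0.62) were called higher on both. Human RNA on mouse probes was not measured for these genes. A second set changed on mouse arrays with no call for the human symbol: Kcne3 (0.16 on human arrays), Angpt2 (0.25), Cldn5 (0.06), Ramp3 (0.23), Cxcl14 (-0.03), Ch25h (0.11) and Adamts4 (-0.12) were lower on mouse probes, and Scarb1 (-0.15), Apoe (0.25), Aplnr (0.29), Sox17 (0.22), Ms4a4a (0.05) and Clec2d (0.13) were higher. Txnip rose on mouse arrays and fell on human arrays (-0.83, adjusted p = 0.0007), and Nid2 fell on mouse arrays and rose on human arrays (1.09, adjusted p = 2.55e-06).

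Vehicle levels of the lines were also set side by side. For 21 genes the human vehicle level in U87M2 was at least 3 log2 units above the mean of the other lines, with a median excess of 3.38. On mouse vehicle arrays the same symbols had a median excess of 0.16, with a range from -0.96 to 1.49, and 3 of the 21 reached 1. Over all shared symbols the median on mouse vehicle arrays was 0.03.

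**Figure D5:**
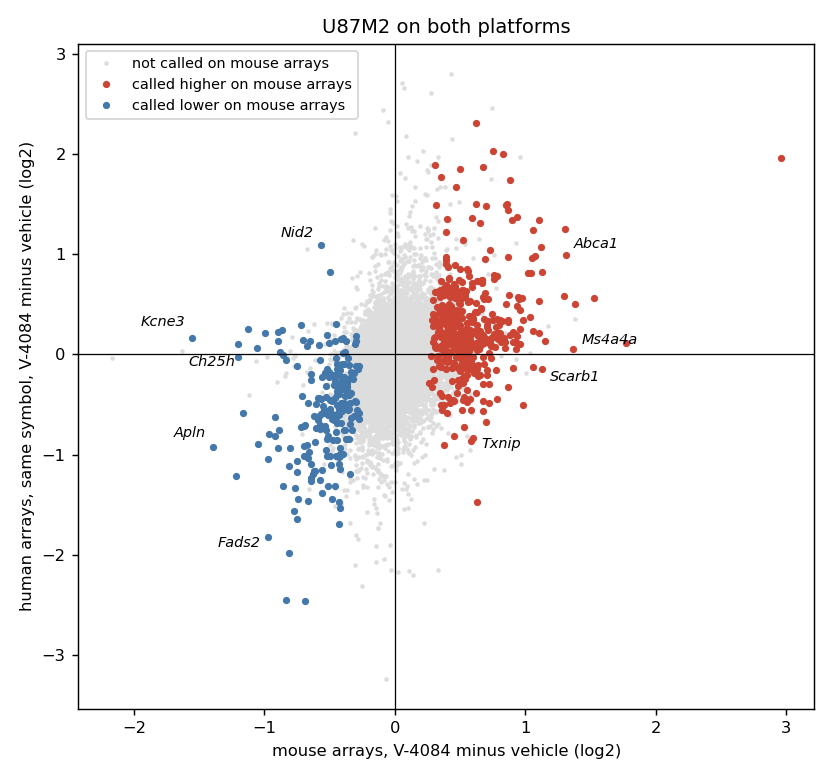
V-4084 minus vehicle (log2) in U87M2 on mouse arrays (horizontal) and on human arrays for the same symbol (vertical), with genes called higher on mouse arrays in red, called lower in blue and others in grey. Fads2 and Apln lie low on both axes, Kcne3 and Ch25h lie near 0 on the human axis, and Txnip and Nid2 lie in opposite quadrants.

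MicroRNA genes, which the naming rule leaves out and which were chosen after their values were seen, include some whose mature sequence is short and strongly conserved. Of 300 microRNA genes 9 were called higher and 4 lower (4.33%, close to the 3.72% of all genes called). The mature human forms of 5 called genes, from RefSeq on GRCh38.p14, are shown because let-7c and let-7a share a seed and moved apart, miR-221 and miR-222 share a seed and moved together, and miR-99a, with a seed of its own, lies beside let-7c. Capitals mark the seed, bases 2 to 8, which pairs with target messenger RNAs:
let-7c-5p: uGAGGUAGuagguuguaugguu
let-7a-5p: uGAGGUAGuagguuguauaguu
miR-99a-5p: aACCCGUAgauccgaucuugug
miR-221-3p: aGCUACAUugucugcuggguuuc
miR-222-3p: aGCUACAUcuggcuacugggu
The let-7c form lies at chr21:16539838-16539859 on the plus strand, with miR-99a 715 bases before it at chr21:16539101-16539122. The let-7a form of MIRLET7A2 lies at chr11:122146568-122146589 on the minus strand. The forms of miR-221 and miR-222 lie close together on the minus strand of the X chromosome, at chrX:45746180-45746202 and chrX:45747036-45747056.

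The neighbours let-7c and miR-99a rose together. Mirlet7c-1 read 6.20, 6.77 and 6.24 with vehicle and 8.38, 8.10 and 7.78 with V-4084 (3.22-fold, log2 1.69, SE 0.20, adjusted p = 2.83e-05). Mir99a read 7.14, 7.31 and 7.27 with vehicle and 8.46, 8.25 and 8.33 with V-4084 (log2 1.10, SE 0.15, adjusted p = 7e-05). All treated arrays were above all vehicle arrays for both. Mirlet7a-2, which shares the let-7 seed, went the other way, from 8.46, 8.71 and 8.77 to 7.61, 7.75 and 7.60 (log2 -0.99, SE 0.18, adjusted p = 0.0014). The pair that share the seed GCUACAU fell together. Mir221 read 8.96, 8.86 and 8.64 with vehicle and 7.79, 7.69 and 7.34 with V-4084 (log2 -1.22, SE 0.16, adjusted p = 7e-05), and Mir222 fell by 0.67 on the log2 scale (SE 0.16, adjusted p = 0.0192). The human arrays gave the same directions, with 1.5 for MIRLET7C, 1.34 for MIR99A, -1.25 for MIRLET7A2, -1.22 for MIR221 and -1.03 for MIR222. The probe sets report signal assigned to these genes, and levels of the mature forms were not measured. The calls of these microRNA genes were not followed with single arrays left out.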

How the data were processed

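Per the labels' protocols, 200 ng of total RNA was amplified and biotin-labelled for Affymetrix arrays. The deposited values are log2 probe-set levels, made by the authors with RMA and Partek per the submitters' processing notes, versions not given in the sources used here. Of 35556 mouse probe sets, 21789 name 1 gene, and the probe set with the highest mean was kept for each of 19938 genes. Depth does not apply to arrays; their number limits the precision. With limma 3.58.1 in R 4.3.3 (lmFit, eBayes), 10 group means were fitted on all 28 mouse arrays (18 residual degrees of freedom), and human arrays separately. Two-sided p-values were adjusted over all genes (Benjamini-Hochberg). Errors are limma's standard errors (SE) unless given as SD. The code was tested on simulated data.

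The gene lists (23 pathway, 15 cell type) and tests were chosen with earlier results of these data known, and 2 further lists after these values were seen. The rule names Met and Hgf, the 14 largest increases and decreases among called genes whose groups did not overlap, the 6 largest differences each way from the other lines, up to 6 called members of each list and defining cell type markers. Predicted genes, receptors for odours, pseudogenes and small RNA genes were left unnamed by it. Older symbols such as Ctgf and Figf were matched to current ones. The alternatives tried are given in the closing section.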

Additional observations from a re-analysis of the deposited data

Results flagged for a closer look

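The following U87M2 differences stood apart because the V-4084 effect in U87M2 tumours differed from the mean effect in the other 4 lines by limma's test of that difference, which 324 genes passed. On the log2 scale the U87M2 effect was more positive by 1.51 for Ms4a4a, 1.47 for Klk1b22, 1.26 for Klhl24, 1.23 for Abca1, 1.19 for Hmcn1 and 1.12 for Mgp. It was more negative for Ch25h (-1.64), Kcne3 (-1.57), Apln (-1.28), Cxcl14 (-1.23), Adamts1 (-1.20) and Trp53i11 (-1.19). For Trp53i11 the arrays read 10.18, 10.31 and 10.14 with vehicle and 9.64, 8.91 and 8.72 with V-4084. Its call in U87M2 was lost without V-4084 array 2 (adjusted p = 0.051), and also without vehicle arrays 1 and 2 together. The Hmcn1 value rests on 1 of 77 probe sets: with the mean of all of them its U87M2 difference was 0.10 (adjusted p = 0.733). Groups of 3 arrays were not searched for outlying arrays.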

How the results depend on the processing

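The 741 calls became 1224 with array weights and 213 without vehicle arrays 1 and 2, and ran from 372 to 798 when 1 array was left out. Quantile normalization gave 1050, of which 54.7% were higher against 67.1% of the 741. The 324 genes that differed from the other lines became 500 among genes above the platform median, 533 with quantile normalization (56.7% more positive against 65.7%), 534 with array weights and 54 without vehicle arrays 1 and 2, and ran from 136 to 355 without 1 array. The 2760 human calls ran from 1750 (without vehicle array 3) to 2507 without 1 array. Deviations of same-numbered arrays had correlations of -0.18, 0.18 and -0.15. The labels do not say whether the repeat number marks a shared animal or day, and these few values cannot settle it. With the repeat number as a replicate block 575 genes were called, 222 against the other lines and 2140 on human arrays. Without 1 array at a time, 57 of the 111 called genes named by the rule lost their call at least once, and 63 without vehicle arrays 1 and 2; none changed sign. The fit on the 6 U87M2 arrays alone called 527, of which 437 were among the 741, and 29 of the 111 named genes lost their call. In that fit the lower calls were 3 for G1/S (8 in the full fit), 4 for MAPK output (8) and 2 for cholesterol synthesis (6). Macrophage genes called higher were 1 (4 in the full fit). Some counts changed little or rose, with 14 lower for G2/M (16), 9 lower for hypoxia and glycolysis (8) and 4 higher for MHC class II (2). Intensity trend (772), mean of probe sets (741), genes above the median (939), median centring (615) and a muscle covariate (669) stayed within 1.5 times 741. Without vehicle arrays 1 and 2, the lone vehicle array is assumed to vary like the other groups. Signal over background is not analysed here, so dim genes may be measured poorly.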

Other observations

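Of 51 small nucleolar RNA genes, whose products guide the chemical modification of ribosomal RNA, 6 were called higher with V-4084 in U87M2 tumours and none lower (11.8%, with 3.72% of all genes called). Snord57 had the largest difference of all called genes, from 7.35 ± 1.01 (SD, n = 3) with vehicle to 10.31 ± 0.10 (n = 3) with V-4084 (log2 2.96, SE 0.39, adjusted p = 7e-05). The same symbol rose by 1.96 on the human arrays (adjusted p = 2.97e-05). These genes lie outside the naming rule and were chosen after their values were seen. Their calls were not followed with single arrays left out, and the vehicle arrays of Snord57 varied widely.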
